A study of Mus musculus with 8 samples.

Results

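Chaperones and genes of the unfolded protein response were followed here as 10 genes taken by symbol, namely Hspa5, Hspa8, Hspa1a, Hspa1b, Hsp90aa1, Hsp90b1, Ddit3, Atf3, Atf4 and Xbp1. All 10 were found among the 54752 genes of the count tables, and all 10 passed the filter on low counts. The libraries came from bulk RNA of the right cerebral cortex of wild-type C57BL/6 (C57BL/6 J in the methods) adult male mice, 1 mouse per library, with 4 sham mice and 4 BCAS mice. BCAS stands for bilateral carotid artery stenosis, in which coils fitted on both common carotid arteries narrow them and cut the cerebral blood flow. The narrower coil sat on the right, the side that was sequenced, and sham mice had the same operation with no coil. Both groups were sampled 3 weeks after surgery, so the data hold 1 time point and 1 hemisphere, in males only.

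The unfolded protein response starts in the endoplasmic reticulum (ER), where the sensors IRE1 (Ern1), PERK (Eif2ak3) and ATF6 react when unfolded proteins accumulate. IRE1 removes a short intron from Xbp1 mRNA, PERK slows translation while favouring that of ATF4, which turns on Atf3 and Ddit3 (the gene of CHOP), and ATF6 raises ER chaperones such as Hspa5 (BiP) and Hsp90b1 (GRP94). The heat shock response is the cytosolic counterpart, in which HSF1 induces Hspa1a, Hspa1b and Hsp90aa1 alongside the constitutive chaperone Hspa8 (HSC70). A count per gene holds neither the splicing of Xbp1 nor the translation of Atf4 and Ddit3, and protein was not measured in these libraries.

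The libraries held 16759364 to 21794435 counts on genes, and 3 counts equalled 0.138 to 0.179 per 1000000 counts before TMM scaling. CPM here are counts per 1000000 of the TMM-scaled library. Neuronal markers were detected in all 8 libraries, summing to 9154-10711 CPM in sham and 3603-7754 CPM in BCAS mice. Of 17136 genes tested with edgeR's quasi-likelihood test, 5490 had a Benjamini-Hochberg adjusted p under 0.05, here named called, 3291 of them higher and 2199 lower in BCAS mice. With scaling by library size alone the split was 3977 higher and 1300 lower. The library of BCAS mouse 1 lay farthest from sham and that of BCAS mouse 2 nearest, with microglial and macrophage markers summing to 8128 and 2054 CPM. The library of sham mouse 3 stood apart by its choroid plexus markers, at 752.8 CPM against 13.6-61.3 CPM in the other 7, and by its immediate-early genes, at 2014 CPM against 253-996 CPM. Striatal markers were highest in BCAS mouse 4, at 377.8 CPM against 135-231 CPM in the other 7 libraries. Since cortex is a mixture, fewer cells of a type and less RNA per cell cannot be told apart in these values.

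Of the 10 members, 1 was called, Atf3, which was higher in BCAS mice, while 32.0% of all tested genes were called. Atf3 passed the filter on low counts through its BCAS libraries. It also passed an absolute log2 fold change above 1, as did 12.2% of all tested genes, 11.0% higher and 1.28% lower. The groups did not overlap for 3 members (34.8% of all tested genes, 18.5% with BCAS above and 16.3% with BCAS below), with Atf3 and Hsp90b1 above sham in every BCAS mouse and Hspa8 below sham in every BCAS mouse. The median log2 fold change was 0.06 over the members and -0.01 over all tested genes. The share of members called was thus below that of the tested genes, and apart from Atf3 the fitted changes lay between -0.37 and 0.52 on the log2 scale. This lower share was not kept without BCAS mouse 2, where 5 of the 10 members and 8167 of 17567 tested genes were called.

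**Figure D1:**
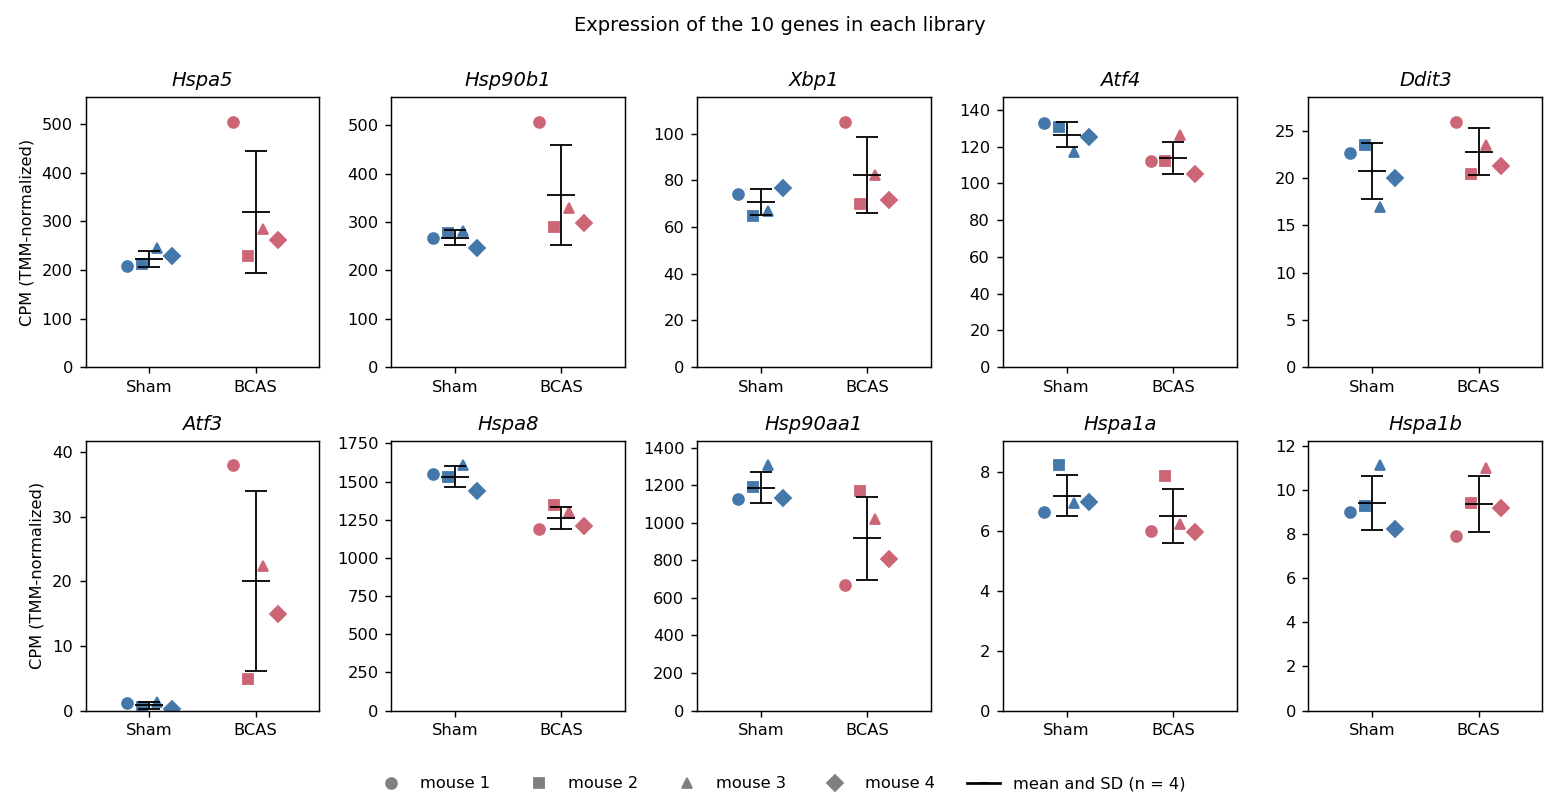
Normalised expression of the 10 members in each of the 8 libraries, with 1 panel per gene, CPM on a linear axis from 0, 1 symbol per mouse and bars for the mean and SD of each group of 4. Atf3 is the member with the widest gap as a ratio, 0.18-1.26 CPM in sham and 4.88-38.0 CPM in BCAS mice, and Hsp90b1 and Hspa8 are the other two without overlap.

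Atf3 encodes a stress-induced transcription factor of the ATF/CREB family, which many signals besides ER stress switch on. It lies on chromosome 1, at 191170296 to 191218039 on the minus strand of mm10, in 5 exon blocks of which no base is shared with another annotated gene. It gave 21, 9, 22 and 3 counts in sham mice 1 to 4 and 866, 95, 415 and 274 counts in BCAS mice 1 to 4. In CPM these were 1.19, 0.56, 1.26 and 0.18 in sham and 38.0, 4.88, 22.4 and 14.9 in BCAS. Every BCAS mouse lay above every sham mouse, with mouse 2 the lowest and mouse 1 the highest of the BCAS group. The mean was 0.797 ± 0.517 CPM (SD, n = 4) in sham and 20.04 ± 14.0 CPM (SD, n = 4) in BCAS. The log2 fold change was 4.63 ± 0.70 (SE), a 24.7-fold increase, with a 95% interval of 3.04 to 6.22 and an adjusted p of 0.00343 by edgeR's quasi-likelihood test. Leaving out each mouse in turn gave log2 fold changes of 4.13 to 4.96, all of them called. Atf3 passed the filter on low counts through its BCAS libraries, as its sham counts went down to 3. A filter that set a minimum count in every library removed it. With no filter on low counts its log2 fold change was 4.62, with an adjusted p of 0.000365 by edgeR's quasi-likelihood test.

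Marker levels of other cell types moved along with Atf3. All 11 microglial and macrophage markers were called higher, their sum going from 399-484 CPM in sham to 8128, 2054, 4201 and 4146 CPM in BCAS mice 1 to 4, and none of the 11 was at 0 in any library. Of 7 markers of blood-borne leukocytes, 3 passed the filter on low counts, and these 3 were called higher. Ptprc, found on all leukocytes, was at 4.82-8.05 CPM in sham and at 38.0, 6.49, 20.9 and 13.3 times the sham mean in BCAS mice 1 to 4, and Ccr2, a monocyte chemokine receptor, was at 0.361-1.31 CPM in sham and at 55.4, 2.74, 32.9 and 9.15 times. The third, Ly6c2, was at 0 in 1 sham library and at most 0.170 CPM in the others, against 0.720-20.4 CPM in BCAS mice. It passed the filter through the BCAS libraries alone, so its call adds no separate evidence. Atf3 itself was at 47.7, 6.13, 28.1 and 18.7 times its sham mean. All 5 fibroblast markers were called higher, with sums of 51.6-73.2 CPM in sham and 135-867 CPM in BCAS. Of 8 neuronal markers, 7 were called lower, and of 7 astrocyte markers, 6 were called higher, summing to 4546-5235 CPM in sham and 6084-9193 CPM in BCAS. Among the remaining lists, 2 of 5 endothelial, 2 of 5 red blood cell and 1 of 4 striatal markers were called higher, 3 of 6 markers of cortical excitatory neurons were called lower, and 0 of 5 oligodendrocyte and 0 of 4 choroid plexus markers were called. The part of these cell types in the levels of Atf3, of the other members and of the pathway lists was not tested.

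The genes whose log2 CPM profile over the 8 libraries came nearest to that of Atf3, by root-mean-square distance among the 12546 tested genes outside the members with a mean of at least 5 CPM, were Slfn8 (0.481), Zbp1 (0.526) and Ms4a6c (0.545). Slfn8 belongs to the Schlafen family, Zbp1 encodes a sensor of Z-form nucleic acids, and Ms4a6c encodes a membrane protein of the MS4A family. Their means were 1.38 ± 0.533 CPM in sham and 29.3 ± 21.6 CPM in BCAS for Slfn8, 0.504 ± 0.261 and 17.0 ± 13.4 CPM for Zbp1, and 0.414 ± 0.194 and 11.6 ± 9.70 CPM for Ms4a6c (SD, n = 4 per group).

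The promoter window of Atf3 is shown because it holds a letter match to the C/EBP-ATF response element, at which dimers of C/EBP proteins with ATF4 or CHOP can bind. The windows here are the 250 bases before the RefSeq start on GRCm38.p6, written 5′ to 3′ on the strand of the gene, with the match in capitals, and 8 of the 10 members had one. Atf3 has TTGCATCA at 110 to 103 bases before the start, and this letter run occurred, on either strand, in 0.792% of 32817 such windows. The window is chr1:191183334-191183583, minus strand, so the RefSeq start used here lies inside the GENCODE span of the gene and not at its annotated 5′ end. Other GENCODE starts of Atf3 were not searched.
Atf3: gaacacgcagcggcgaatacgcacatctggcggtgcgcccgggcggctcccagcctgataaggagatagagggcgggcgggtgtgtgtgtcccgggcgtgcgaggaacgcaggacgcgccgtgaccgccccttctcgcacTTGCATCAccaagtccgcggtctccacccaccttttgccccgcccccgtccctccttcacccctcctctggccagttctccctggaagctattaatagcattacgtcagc

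Atf4, Ddit3 and Xbp1, the other transcription factors of the response, were not called. Atf4, which drives amino acid supply and stress genes, gave 133, 131, 117 and 125 CPM in sham mice 1 to 4 and 112, 112, 126 and 105 CPM in BCAS mice 1 to 4. The groups overlapped through BCAS mouse 3, and the log2 fold change was -0.15 ± 0.08 (SE), with a 95% interval of -0.34 to 0.03 and an adjusted p of 0.177. Atf4 is a gene of 1 exon block on chromosome 15, at 80255184 to 80257541 on the plus strand.

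Ddit3 encodes CHOP, a C/EBP family factor linked to cell death under lasting ER stress. It had 22.6, 23.5, 16.9 and 20.1 CPM in sham and 26.0, 20.4, 23.6 and 21.3 CPM in BCAS mice, with interleaved values. Its log2 fold change was 0.14 ± 0.13 (SE), with a 95% interval of -0.16 to 0.43 and an adjusted p of 0.436. It was 0.04 without sham mouse 3, 0.08 without BCAS mouse 1 and 0.23 with scaling by library size alone, called in none of them. The symbol belongs to 2 gene identifiers on chromosome 10, and the second, of 105 exon bases that all fall within the first, was listed at 0 in every library. The first spans 127290774 to 127296288 on the plus strand and shares 4.73% of its exon bases with genes of the opposite strand, Mars and Gm4189.

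Xbp1 encodes the factor that IRE1 activates through splicing. Its values were 74.0, 64.9, 66.8 and 76.7 CPM in sham and 105, 70.0, 82.2 and 71.7 CPM in BCAS mice 1 to 4. BCAS mice 1 and 3 lay above all sham mice and BCAS mice 2 and 4 lay among them. The log2 fold change of 0.22 ± 0.13 (SE), with a 95% interval of -0.08 to 0.52, had an adjusted p of 0.227, and it was 0.09 without BCAS mouse 1. Xbp1 lies on chromosome 11, at 5520659 to 5525893 on the plus strand, and shares no exon base with another annotated gene.

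Hspa5 and Hsp90b1, the HSP70 and the HSP90 of the ER lumen, had higher means in BCAS mice without passing the test. Hspa5 (BiP) holds unfolded proteins in solution and keeps the 3 stress sensors inactive, and its gene lies on chromosome 2, at 34771970 to 34777547 on the plus strand. It gave 208, 211, 244 and 228 CPM in sham and 505, 228, 285 and 261 CPM in BCAS mice 1 to 4. BCAS mouse 1 stood far above the rest at 2.27 times the sham mean, mice 3 and 4 were also above the highest sham mouse, and mouse 2 fell among the sham mice. The log2 fold change was 0.52 ± 0.23 (SE), with a 95% interval of 0.0033 to 1.04 and an adjusted p of 0.106. Without BCAS mouse 1 it was 0.22, and without BCAS mouse 2 it was 0.66 and called, with an adjusted p of 0.0290.

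Hsp90b1 (GRP94) folds integrins and Toll-like receptors, among other secretory pathway clients, and its gene lies on chromosome 10, at 86690209 to 86705509 on the minus strand. Values of 266, 277, 281 and 246 CPM were measured in sham and 508, 289, 328 and 299 CPM in BCAS mice 1 to 4. All BCAS mice were above all sham mice, yet mouse 2 exceeded the highest sham mouse only narrowly. The log2 fold change was 0.41 ± 0.18 (SE), with a 95% interval of 0.013 to 0.81 and an adjusted p of 0.0990. It was 0.20 without BCAS mouse 1 and 0.51 without BCAS mouse 2, the latter called with an adjusted p of 0.0363. Another gene, 1810014B01Rik, covers 10.3% of the exon bases of Hsp90b1 from the opposite strand, and the counting took no account of strand.

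The promoter windows of both ER chaperones are shown because they hold the ER stress response element, CCAAT and CCACG separated by 9 bases, which ATF6 and XBP1 use together with NF-Y. Only 37 of 32817 windows (0.113%) hold it on either strand. In Hspa5 it lies 65 to 47 bases before the start, in the window chr2:34771840-34772089 on the plus strand. In Hsp90b1 it occurs at 212 to 194 bases and, reading on the opposite strand, at 107 to 89 bases before the start, in chr10:86705445-86705694 on the minus strand. The RefSeq starts of Hspa5, Hsp90b1 and Ddit3 also lie inside the GENCODE spans of these genes, whose other starts were not searched.
Hspa5: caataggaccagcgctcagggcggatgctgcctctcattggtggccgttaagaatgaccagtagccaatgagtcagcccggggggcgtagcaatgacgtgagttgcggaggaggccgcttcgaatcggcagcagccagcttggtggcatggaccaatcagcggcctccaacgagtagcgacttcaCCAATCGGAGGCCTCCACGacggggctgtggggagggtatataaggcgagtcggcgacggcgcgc
Hsp90b1: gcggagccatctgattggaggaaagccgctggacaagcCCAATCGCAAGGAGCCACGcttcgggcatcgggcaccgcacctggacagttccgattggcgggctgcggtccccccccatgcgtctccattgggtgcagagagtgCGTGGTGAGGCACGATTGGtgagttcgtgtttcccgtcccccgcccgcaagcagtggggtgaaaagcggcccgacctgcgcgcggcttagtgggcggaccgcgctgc

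Among tested genes, 20, the members Hspa5 and Hsp90b1 included, had the ER stress response element in their window, and 2 of them, Calr and Dnajc3, were called higher and 0 lower, with a median log2 fold change of 0.37. Of 12270 tested genes with a window, 20.4% were called higher and 13.4% lower, with a median of 0.00. The heat shock element pair had 21.9% of 753 genes called higher and 13.7% lower (median -0.0027), and the C/EBP-ATF response element 25.0% of 80 higher and 11.25% lower (median -0.03). The cyclic AMP response element had 11.6% of 352 genes higher and 18.5% lower (median -0.10), and the unfolded protein response element 18.5% of 108 in either direction (median -0.08). The windows of Ddit3, Atf4 and Xbp1 held none of the 5 motifs searched on both strands, which were this element, TTGCATCA, the cyclic AMP response element TGACGTCA, the unfolded protein response element TGACGTGG and the heat shock element pair GAANNTTC. These letter searches describe the sequence and measure no binding.

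**Figure D2:**
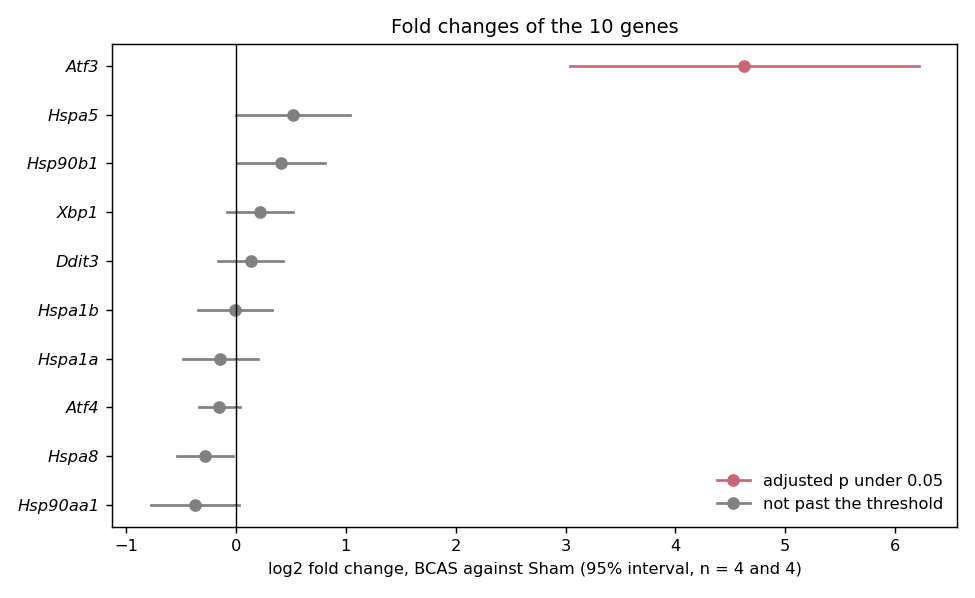
Log2 fold change of BCAS against sham mice for each member, with the 95% interval of edgeR's fit as a line and colour for an adjusted p under 0.05. The interval of Atf3, 3.04 to 6.22, lies apart from those of the other 9 members, whose estimates run from -0.37 to 0.52.

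Hspa8 and Hsp90aa1, the cytosolic chaperones with the highest levels among the 10 members, had lower means in BCAS mice. Hspa8 (HSC70) folds new proteins and strips clathrin from vesicles at synapses, and its gene lies on chromosome 9, at 40800984 to 40810087 on the plus strand, with Snord14c, Snord14d and Snord14e on 6.09% of its exon bases. It gave 1550, 1532, 1608 and 1441 CPM in sham and 1191, 1346, 1303 and 1208 CPM in BCAS mice 1 to 4. Every BCAS mouse was below every sham mouse, and BCAS mouse 2 came nearest to sham. The log2 fold change was -0.28 ± 0.11 (SE), with a 95% interval of -0.53 to -0.03, and the adjusted p of 0.0810 by edgeR missed the threshold. DESeq2 called it, with an adjusted p of 0.000653, and edgeR called it without BCAS mouse 2, with an adjusted p of 0.0445.

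Hsp90aa1 encodes the stress-inducible form of cytosolic HSP90, which matures kinases and steroid receptors, from chromosome 12, at 110690605 to 110702728 on the minus strand. Its values were 1125, 1189, 1308 and 1132 CPM in sham and 669, 1170, 1021 and 807 CPM in BCAS mice 1 to 4. BCAS mice 1, 3 and 4 were below all sham mice and mouse 2 was among them. The log2 fold change was -0.37 ± 0.18 (SE), with a 95% interval of -0.78 to 0.03 and an adjusted p of 0.1301. It was -0.24 without BCAS mouse 1, and without BCAS mouse 2 it was -0.50 and called, with an adjusted p of 0.0252. In windows of 150 bases along the transcripts, 28.5% of those of Hsp90aa1 and 23.0% of those of Hspa8 also occur in transcripts of other genes, mainly Gm12346 and Gm26825, so their counts depend on how such reads were placed.

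**Figure D3:**
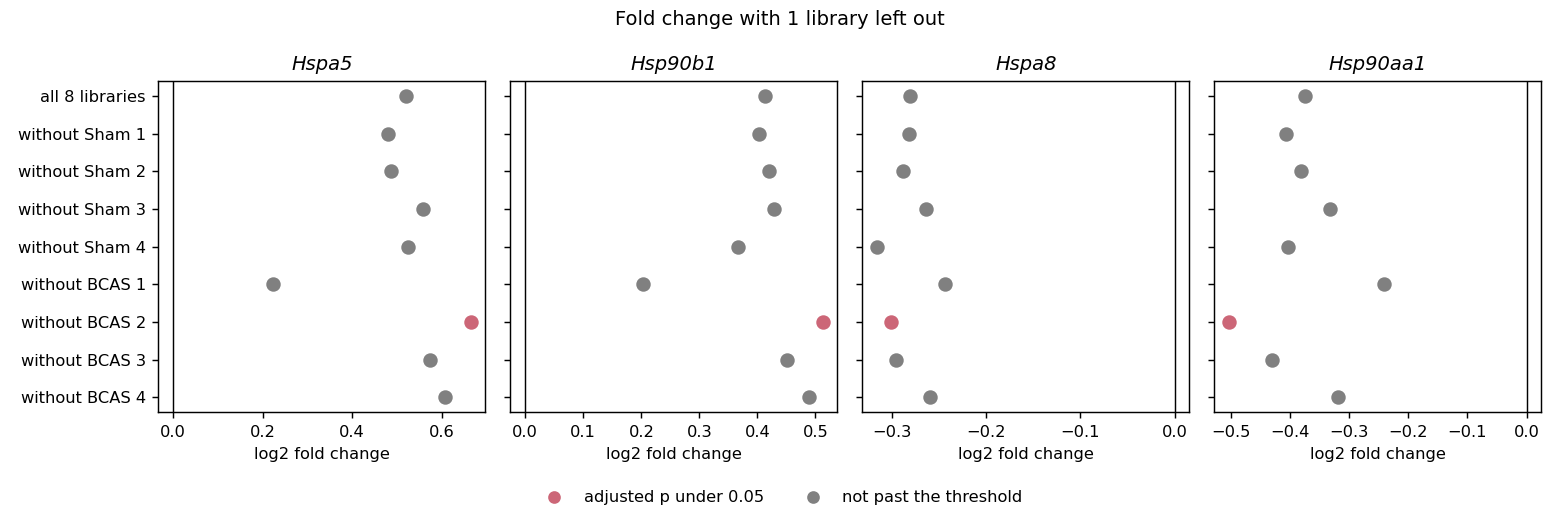
Log2 fold change of Hspa5, Hsp90b1, Hspa8 and Hsp90aa1 (horizontal axes, 1 panel per gene) with all 8 libraries and with each library left out in turn, coloured where the adjusted p was under 0.05. All 4 genes pass the threshold without BCAS mouse 2 and in no other of these fits, and Hspa5 and Hsp90b1 come nearest to 0 without BCAS mouse 1, at 0.22 and 0.20.

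Neuronal marker sums moved with the cytosolic chaperones. They were 0.360, 0.774, 0.600 and 0.543 times the sham mean in BCAS mice 1 to 4, where Hsp90aa1 was at 0.563, 0.985, 0.859 and 0.679 times and Hspa8 at 0.777, 0.878, 0.850 and 0.788 times its own sham mean. The share of neurons in these differences was not tested.

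**Figure D4:**
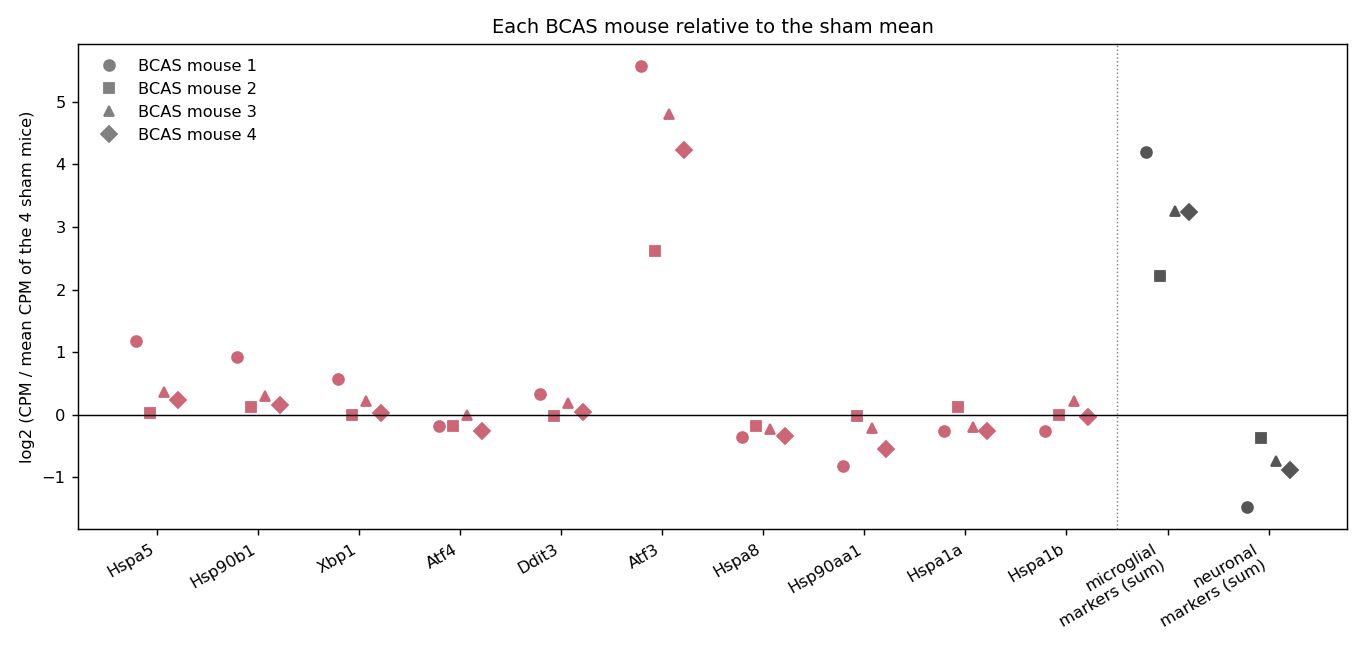
Each BCAS mouse relative to the mean of the 4 sham mice, on a log2 axis, for the 10 members and for the summed microglial and neuronal markers, with 1 symbol per mouse. BCAS mouse 1 lies farthest from 0 for Atf3 (47.7 times the sham mean), Hspa5 (2.27 times) and Hsp90b1 (1.898 times), whereas mouse 2 lies near 0 for most members.

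The ER and the cytosolic chaperones therefore had means on opposite sides of sham. Hspa5 and Hsp90b1 together made up 0.177 to 0.184 of the summed CPM of Hspa8 and Hsp90aa1 in sham mice, and 0.544, 0.206, 0.264 and 0.278 of it in BCAS mice 1 to 4. All BCAS ratios were above all sham ratios, mouse 2 by the least. Among the 4 HSP70 members (Hspa5, Hspa8, Hspa1a and Hspa1b), Hspa5 held 11.9% to 13.7% of the summed CPM per kilobase of exon in sham. In BCAS mice 1 to 4 it held 29.8%, 14.5%, 17.9% and 17.8%. Both are descriptions of the members, with no test.

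Hspa1a and Hspa1b, the heat-inducible HSP70 genes, lay between 5.98 and 11.1 CPM in all libraries. Hspa1a had 6.64, 8.22, 6.96 and 6.99 CPM in sham and 6.01, 7.87, 6.25 and 5.98 CPM in BCAS mice 1 to 4. Its log2 fold change was -0.14 ± 0.15 (SE), with a 95% interval of -0.48 to 0.20 and an adjusted p of 0.489. For Hspa1b the values were 9.02, 9.28, 11.1 and 8.25 CPM in sham and 7.90, 9.41, 10.998 and 9.19 CPM in BCAS. Its log2 fold change was -0.01 ± 0.15 (SE), with a 95% interval of -0.35 to 0.33 and an adjusted p of 0.970. With scaling by library size alone the log2 fold changes were -0.06 for Hspa1a and 0.08 for Hspa1b, neither of them called.

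Both genes are of 1 exon block and sit close together on chromosome 17, Hspa1a at 34969190 to 34972156 and Hspa1b at 34956436 to 34959238, on the minus strand. They are near copies, and 46.0% of the 150-base windows of Hspa1a and 40.5% of those of Hspa1b occur in another gene, for the most part in each other. Reads placed on both genes were not counted, since the counting left out multi-mapped reads. Summing both genes gave a log2 fold change of -0.06. Gm20481 covers 19.0% of the exon bases of Hspa1a from the opposite strand.

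Their promoter windows are given because they show how alike the pair is, differing at 3 of 250 bases, and because they hold the heat shock element pair GAANNTTC, the site type of HSF1, at 104 to 97 bases before the start. That pair occurs in 6.69% of all windows. The windows are chr17:34972157-34972406 for Hspa1a and chr17:34959239-34959488 for Hspa1b, both on the minus strand.
Hspa1a: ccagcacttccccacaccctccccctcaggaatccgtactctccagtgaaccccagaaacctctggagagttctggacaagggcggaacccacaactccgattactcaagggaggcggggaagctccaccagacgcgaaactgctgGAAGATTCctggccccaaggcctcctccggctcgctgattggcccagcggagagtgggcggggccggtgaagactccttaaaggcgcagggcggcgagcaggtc
Hspa1b: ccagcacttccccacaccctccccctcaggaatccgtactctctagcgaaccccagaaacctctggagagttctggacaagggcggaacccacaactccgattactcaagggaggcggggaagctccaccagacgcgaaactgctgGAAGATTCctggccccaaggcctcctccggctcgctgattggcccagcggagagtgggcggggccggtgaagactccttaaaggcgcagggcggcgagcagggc

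Per kilobase of exon, which allows genes to be compared, the order in sham mice was Hspa8 (356 ± 16.04 CPM per kb), Hsp90aa1 (302 ± 21.4), Hsp90b1 (66.3 ± 3.89), Atf4 (53.7 ± 2.97), Hspa5 (52.7 ± 3.95), Xbp1 (21.7 ± 1.74), Ddit3 (12.1 ± 1.73), Hspa1b (3.36 ± 0.436), Hspa1a (2.43 ± 0.235) and Atf3 (0.370 ± 0.240), as mean ± SD of 4. Atf4 and Hspa5 overlapped between libraries, and the other neighbours did not. In BCAS mice Hspa5 (75.6 ± 29.7 CPM per kb) came above Atf4 (48.3 ± 3.73), with no overlap, and Atf3 (9.30 ± 6.48) came above Hspa1b (3.34 ± 0.454), with overlap. Atf3 thereby moved from the lowest place of the 10 to the eighth, where its range overlapped those of Ddit3, Hspa1b and Hspa1a. The order takes no account of read windows shared with other genes, 46.0% in Hspa1a, 40.5% in Hspa1b, 28.5% in Hsp90aa1 and 23.0% in Hspa8. Atf3 had none, so levels of these 4 genes may be too low beside it.

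The pathways around the members were covered by 190 further genes in 10 lists, of which 185 could be tested. Of these, 47 were called higher and 24 lower, with a median log2 fold change of 0.02, and with scaling by library size alone the split was 55 higher and 9 lower, and with no filter on low counts 45 higher and 11 lower. Among all tested genes, 19.2% were called higher and 12.8% lower. Leaving out each mouse in turn, 20 of the 71 called genes were called in all 8 fits. The count was 23 without sham mouse 1, 27 without sham mouse 2, 47 without sham mouse 3, 26 without sham mouse 4, 31 without BCAS mouse 3 and 41 without BCAS mouse 4.

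**Figure D5:**
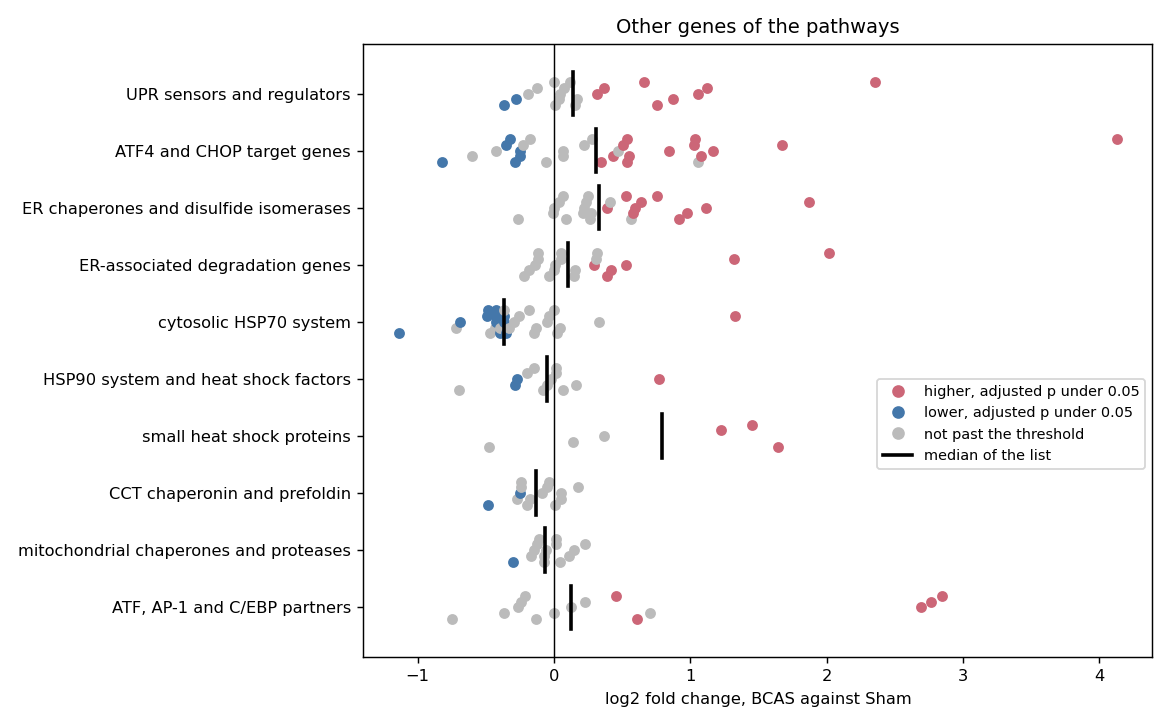
Log2 fold change of BCAS against sham mice for the tested genes of the 10 pathway lists, 1 point per gene, coloured by the call, with a bar at the median of each list. ER chaperones and ER-associated degradation genes show called points to the right of 0 only, and the cytosolic HSP70 system has 11 called points to the left and 1 to the right.

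Of the 3 stress sensors, Ern1 rose, Atf6 fell and Eif2ak3 was not called. Ern1 (IRE1) went from 14.9 ± 1.21 to 27.3 ± 9.32 CPM (SD, n = 4), a log2 fold change of 0.87 ± 0.22 (SE) with an adjusted p of 0.0202, and it stayed called in 4 of 8 fits that left out 1 mouse. Atf6 went from 117 ± 16.7 to 90.8 ± 6.62 CPM, a log2 fold change of -0.37 ± 0.11 (SE) with an adjusted p of 0.0394, and stayed called in 3 of 8. Eif2ak3 (PERK) had a log2 fold change of 0.05 and an adjusted p of 0.738. In the whole list of UPR sensors and regulators, 8 of 20 genes were called higher and 2 lower, with a median of 0.14. The 8 higher genes became 2 without sham mouse 1, 2 or 4, 4 without sham mouse 3 or BCAS mouse 3, and 5 without BCAS mouse 4. The largest increases belonged to Eif2ak2 (2.36 ± 0.35), which encodes PKR, an interferon-induced kinase that senses double-stranded RNA, and to Creb3l2 (1.12 ± 0.21), an ER-anchored factor related to ATF6. Besides Atf6, Eif2ak1, the heme-regulated kinase of the same translation factor, was lower, at -0.27 ± 0.08 (SE), and stayed called in 4 of 8 fits that left out 1 mouse. The 2 lower genes became 0 with scaling by library size alone, with no filter on low counts, and without sham mouse 1, 2 or 4 or BCAS mouse 4, and 1 without BCAS mouse 3.

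Targets of ATF4 and CHOP went both ways, with 13 of 30 tested genes called higher and 6 lower (median 0.31). Gdf15, which encodes a secreted stress cytokine, had 2 to 3 counts in each sham library and from 15 upward in each BCAS library, at 0.149 ± 0.0405 against 2.68 ± 2.17 CPM (adjusted p 0.00533), and its fold is imprecise at so few sham counts. Trib3, a pseudokinase that CHOP induces, rose from 0.699 ± 0.203 to 2.23 ± 1.04 CPM, a log2 fold change of 1.67 ± 0.41 (SE), and stayed called in 6 of 8 fits that left out 1 mouse. The higher genes also included the cystine transporter subunit Slc7a11 at 1.04 and the serine synthesis enzymes Psat1 at 0.55 and Phgdh at 0.44 on the log2 scale. Of the 6 lower genes, 5 were transfer RNA synthetases, Gars (-0.35 ± 0.10), Cars (-0.32 ± 0.11), Sars (-0.29 ± 0.08), Wars (-0.25 ± 0.07) and Aars (-0.25 ± 0.08), which charge tRNAs with amino acids. The other was Jdp2, a repressor of the ATF family, at -0.82 ± 0.18. With scaling by library size alone 15 genes of the list were called higher and 2 lower, and with no filter on low counts 12 higher and 2 lower. Without sham mouse 1, 2 or 4 the list had 4, 8 and 6 genes called higher and 1 lower, without BCAS mouse 3 it had 8 higher and 2 lower, and without BCAS mouse 4 it had 11 higher and 1 lower. Jdp2 was called in 8 of 8 such fits, so that all 5 synthetases lost their call without sham mouse 1, 2 or 4 or BCAS mouse 4.

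ER chaperones and disulfide isomerases beyond the members had 10 of 24 genes called higher and 0 lower, with a median of 0.33 against -0.01 over all tested genes. The list summed to 1819-1911 CPM in sham and to 3184, 2031, 2457 and 2268 CPM in BCAS mice 1 to 4, where the microglial and macrophage markers were at 18.5, 4.67, 9.55 and 9.42 times and the astrocyte markers at 1.89, 1.25, 1.63 and 1.72 times the sham mean. Sdf2l1, part of the BiP complex, rose from 6.81 ± 1.80 to 24.9 ± 13.1 CPM, a log2 fold change of 1.87 ± 0.36 (SE), and was called in 8 of 8 fits that left out a mouse. Pdia4, a disulfide isomerase, rose from 28.5 ± 3.15 to 61.7 ± 26.1 CPM, a log2 fold change of 1.11 ± 0.27 (SE), and was called in 6 of 8. DESeq2 called 1 gene of the list lower. The other 8 were Calr, Pdia3, Pdia5, P4hb, Ppib, Erp29, Txndc5 and Sil1, with log2 fold changes from 0.39 (Ppib) to 0.98 (Pdia5). The count of 10 became 5 without any 1 of sham mice 1, 2 and 4, 6 without sham mouse 3 or BCAS mouse 3, and 15 without BCAS mouse 2.

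Genes of ER-associated degradation, which moves misfolded proteins out of the ER to the proteasome, had 6 of 20 called higher and 0 lower (median 0.10), while DESeq2 called 2 lower and 1 was lower without BCAS mouse 2. Edem1, a mannosidase-like selector of misfolded glycoproteins and a target of XBP1, rose from 28.9 ± 1.75 to 117 ± 57.6 CPM, a log2 fold change of 2.02 ± 0.31 (SE). Edem2 rose from 18.4 ± 1.92 to 45.9 ± 19.3 CPM, a log2 fold change of 1.32 ± 0.27 (SE). Both were called in 8 of 8 fits that left out a mouse, and the other called genes, Derl1, Derl2, Os9 and Ubxn4, had log2 fold changes from 0.30 to 0.53. The count of 6 fell to 2 without sham mouse 1, 2 or 4 or without BCAS mouse 3.

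The cytosolic HSP70 system, which pairs HSP70s with J-domain proteins and nucleotide exchange factors, had 11 of 29 genes called lower and 1 higher, with a median of -0.37. The list summed to 4232-4304 CPM in sham and to 2712, 3912, 3457 and 3271 CPM in BCAS mice 1 to 4, in the order of the neuronal marker sums, which were 0.360, 0.774, 0.600 and 0.543 times the sham mean. The lower genes included Hspa1l, a relative of Hspa1a (-1.13 ± 0.22), Dnajc6, the auxilin that works with HSC70 in uncoating synaptic vesicles (-0.69 ± 0.21), and Dnajc5, the cysteine string protein of synaptic vesicles (-0.42 ± 0.14). Hspa1l stayed called in 8 of 8 fits that left out 1 mouse and Dnajc6 in 2 of 8, and 2 of the 12 called genes of the list, Hspa1l and Bag3, stayed called in all 8. Gm10501 covers 71.9% of the exon bases of Hspa1l from the opposite strand. Bag3, which directs HSP70 clients to autophagy, was the higher one, from 8.67 ± 0.815 to 21.8 ± 8.33 CPM, a log2 fold change of 1.33 ± 0.27 (SE). The number called higher was 2 with scaling by library size alone and without BCAS mouse 2. The number called lower was 6 with scaling by library size alone, 8 with no filter on low counts, 1 without sham mouse 2 or BCAS mouse 3, 2 without sham mouse 1 or 4, 6 without sham mouse 3, 3 without BCAS mouse 4 and 17 without BCAS mouse 2.

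Small heat shock proteins, which hold aggregating proteins in soluble form, had 3 of 6 tested genes called higher, namely Hspb8 (1.64 ± 0.30), Hspb6 (1.45 ± 0.30) and Hspb1 (1.22 ± 0.40) on the log2 scale. Hspb8 and Hspb6 stayed called in 8 of 8 fits that left out 1 mouse, whereas Hspb1 lost its call in 7 of 8. Hspb8 went from 12.2 ± 1.83 to 38.1 ± 16.6 CPM. In the HSP90 system and heat shock factors, 1 of 13 was called higher, the glucocorticoid-induced cochaperone Fkbp5 at 0.77 ± 0.15, and 2 were called lower, Ahsa1 at -0.29 ± 0.08 and Fkbp4 at -0.27 ± 0.08. The CCT chaperonin and prefoldin had 2 of 14 called lower, Pfdn2 (-0.48 ± 0.14) and Cct7 (-0.25 ± 0.08), and 0 higher. Of the mitochondrial chaperones and proteases, 1 of 14 was called lower, Afg3l2 at -0.30 ± 0.10. With scaling by library size alone or with no filter on low counts, 0 genes were called lower in the HSP90 list and in the mitochondrial list. With library size alone the chaperonin list had 1 called higher and 1 lower, and with no filter 0 higher and 1 lower. Among fits that left out 1 mouse, Cct7 stayed called in 1 of 8, Ahsa1 and Afg3l2 in 2 of 8, Fkbp4 in 3 of 8 and Pfdn2 in 4 of 8. The HSP90 list had 0 called lower without sham mouse 1, 2 or 4 or BCAS mouse 3 or 4, and 1 without sham mouse 3. The chaperonin list had 0 without sham mouse 1, 2 or 4 or BCAS mouse 3, 1 without sham mouse 3 or BCAS mouse 1 or 4, and 4 without BCAS mouse 2. The mitochondrial list had 0 without any 1 sham mouse and without BCAS mouse 3 or 4.

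The ATF, AP-1 and C/EBP genes, whose products pair with those of Atf3, Atf4 and Ddit3, had 5 of 15 tested genes called higher and 0 lower (median 0.13). Cebpa, a myeloid C/EBP factor, rose from 14.4 ± 1.37 to 103 ± 50.5 CPM, a log2 fold change of 2.84 ± 0.35 (SE). Batf2 rose from 0.211 ± 0.133 to 1.44 ± 1.05 CPM, a log2 fold change of 2.76 ± 0.67 (SE), and lost its call in 1 of 8 fits that left out a mouse. Cebpd rose by 2.69 ± 0.37 (SE), Atf1 by 0.61 and Atf7 by 0.46 on the log2 scale. The count of 5 fell to 2 without sham mouse 1, and to 3 without sham mouse 2 or 4 or BCAS mouse 3. DESeq2 called 1 gene of this list lower, and 2 were lower without BCAS mouse 2.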

How the data were processed

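Libraries of mRNA purified from total RNA (NEBNext Ultra) of 4 sham and 4 BCAS mice were sequenced as pairs of 150-base reads. The authors trimmed the reads with Trim Galore, aligned them to mm10 with HISAT2, sorted them with SAMtools 1.9, and deposited unnormalised counts per gene from featureCounts. The file headers name featureCounts 2.0.1 and GENCODE vM20, while the submitters' processing notes name version 1.6.3. The header options set no strand and no counting of multi-mapped or overlapping reads. Groups and replicate numbers came from the sample titles. Symbols, matched for 54723 of 54752 genes, and coordinates came from GENCODE vM21 on the same build. Promoters came from RefSeq on GRCm38.p6.

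Counts were tested in R 4.3.3 with edgeR 4.0.16 (TMM factors, filterByExpr with minimum count 10 and minimum total 15, quasi-likelihood F-test between the groups, no covariates), with Benjamini-Hochberg adjustment over 17136 genes. CPM are TMM-scaled. The SE was derived from the fold change and F, and the 95% intervals are not adjusted for multiple testing. The procedure was tested on simulated data. P-values measure the spread between the mice. The totals of 16759364 to 21794435 counts bound the precision of low genes, and floors of 3 counts cover counting error only. Replicates of a group differed by more than counting noise, so none was counted as a duplicate.

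Named genes were all members, the 3 sensors, in each list the 2 largest called increases and decreases, and the 3 nearest profiles to Atf3. Other called genes in the lists were named after their values were seen. A marker gene of blood-borne leukocytes is not reported here, and neither is the sum of its list. The members and lists were chosen with earlier results of these data known. Alternatives were DESeq2's size factors, upper-quartile factors or library size alone, other filters, DESeq2 1.42.0, limma 3.58.1 (voom, and log2(CPM + 1)), robust edgeR, the replicate number as a block, leaving out each mouse, Hspa1a and Hspa1b summed, and an added threshold on the fold change. The counts per list under the alternatives were added after the data were seen. Plots were made in Python 3.11.15 (matplotlib 3.10.9).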

Additional observations from a re-analysis of the deposited data

Results flagged for a closer look

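In the BCAS group, Hspa1a had 1 library far from the other 3, BCAS mouse 2 at 7.87 CPM against 5.98-6.25 CPM. The gap to the nearest library was 0.856 of the group's range, above Dixon's 95% critical value for 4 samples. Of 20 groups examined (10 members in 2 groups), this was the 1 flagged, and chance flags about 1 in 20.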

How the results depend on the processing

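Atf3 was called in all 17 alternatives that could test it (log2 fold change 3.30 to 4.96, adjusted p up to 0.0326). The number of members called, 1, became 0 when at least 10 counts were required in every library, because that filter removed Atf3, and 2 with DESeq2, because Hspa8 joined. Leaving out each mouse in turn gave 1 to 5 members, 5 without BCAS mouse 2 and 1 in every other such fit. The pathway genes called (71) numbered 23 to 97 and all genes called (5490) 2549 to 8167 across these fits. The lowest counts came without sham mouse 1 and the highest without BCAS mouse 2. All genes called were also 2723 without sham mouse 2, 2731 without sham mouse 4, 2974 without BCAS mouse 3 and 3198 without BCAS mouse 4. Requiring an absolute log2 fold change above 1 left 21 pathway genes and 2097 genes in all. The replicate numbers do not pair the mice, since same-numbered libraries correlated at -0.10 to 0.0013 in their deviations. The replicate block gave 1 member, 36 pathway genes and 3546 genes in all, with 2 of the 5 ATF, AP-1 and C/EBP genes, 5 higher and 0 lower UPR regulators, 7 higher and 1 lower ATF4 and CHOP targets, 3 higher degradation genes, 6 lower HSP70 genes, and 0 lower in the HSP90, chaperonin and mitochondrial lists. Hspa1b, at -0.01, changed sign with library size alone (0.0760), with at least 10 counts in every library (0.0091) and among the fits that left out a mouse (-0.0936 to 0.0766), and was called in none of them. Apart from Hspa1b the members kept their direction in all alternatives, but Hspa5, Hsp90b1 and Hsp90aa1 were called only without BCAS mouse 2. Low counts, 3 to 22, limit the precision of Atf3 in sham mice.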
